A study of Mus musculus with 2 samples.

Results

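The subject is the tumour suppressor p53 and the genes that it controls or that control it, in pancreatic islets of mice that overexpress the microRNAs miR-141 and miR-200c. The 37 genes were chosen by name, and their probe sets are those of the array whose only annotated gene is one of them. Of the 37 genes, 34 had such a probe set, 64 probe sets in all among 45101 on the array and 18193 genes with a probe set of their own. No value is given here for Trp53, which encodes p53, for the pore-forming Bax or for the secreted factor Gdf15.

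Total RNA of islets was hybridised to Affymetrix mouse expression arrays, with 1 array for the transgenic and 1 for the control genotype. The transgenic sample is labelled miR-141/200c_overexpression and carries the sample name Ripmir. The control is labelled Bl6_control and carries the sample name C57Bl6_islets. The genotype label and name of the transgenic sample give no strain, so whether both strains match could not be checked. Both came from males aged 6 weeks, and the islets received no further treatment before RNA extraction. The labels do not spell out the promoter that drives the transgene, the number of founder lines or the number of mice behind a sample. With 1 array per genotype there is no replicate error, no test and no p-value, and higher or lower refers to these 2 arrays alone. The labels name beta cells as the source and islets as the tissue. The insulin gene Ins2 read 14.95 on the transgenic and 15.02 on the control array, but the alpha cell hormone gene Gcg (14.13 and 14.19) and the acinar enzyme gene Cpa1 (14.17 and 14.04) were also near the top of the scale. The RNA was therefore that of an islet preparation with several cell types.

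p53 is a transcription factor that is held at a low level by the ubiquitin ligase Mdm2 and is stabilised when DNA is damaged or the cell is stressed. It then binds paired copies of a 10-base unit near its target genes and raises their transcription. Its targets stop the cell cycle, trigger apoptosis, repair DNA, adjust metabolism and, through Mdm2, shut p53 off again. In islets p53 has been studied as a mediator of beta cell death, and the series title places this comparison in beta cell survival in type 2 diabetes.

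The microRNAs of the transgene are shown because they define the comparison. The seed, bases 2 to 8, which pairs with target messenger RNAs, is in capitals, and the sequences are those of RefSeq for GRCm38.p6.
mmu-miR-141-3p: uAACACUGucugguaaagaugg
mmu-miR-200c-3p: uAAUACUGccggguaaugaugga
Both lie on the minus strand of chromosome 6, at chr6:124717917-124717938 and chr6:124718324-124718346. Their seeds differ at 1 of 7 bases. No level of either microRNA is reported here, so the overexpression itself was not checked.

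The p53 binding element is shown for the genes whose start region holds a match. RefSeq start regions of GRCm38.p6, from 250 bases before to 50 after an annotated start, were available for 28 of the 37 genes. They were searched for the p53 consensus element, 20 bases made of 2 adjoining 10-base units, with the fixed C and G of both units required and at most 3 departures elsewhere. The element reads alike on both strands. A match was found for 7 of the 28 genes (25%), against 1.61% of 17492 protein-coding genes, and with at most 1 departure for 2 of 28 against 0.0629%. These genes are known targets, and for some of them the element itself is part of that knowledge. Matches are in capitals with 5 bases on either side, 5′ to 3′ on the strand of the gene, and the coordinates given are those of all 30 printed bases.
Ccng1: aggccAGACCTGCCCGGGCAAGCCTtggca
Cdkn1a: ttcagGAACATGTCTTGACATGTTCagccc
Bbc3: cccgaCTGCAAGCCCCGACTTGTCCccagc
Aen: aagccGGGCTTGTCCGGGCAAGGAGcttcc
Sesn1: ccttcAAGCTTGTTTTTGCTGGCCTggtcc
Tigar: gcggcGGTCTAGCTCTGGCAAGACTccagg
The Ccng1 match (printed bases chr11:40755457-40755486, minus strand) begins 195 bases before the start and has 1 departure. The Cdkn1a match (printed bases chr17:29090923-29090952, plus strand) begins 51 bases before the more upstream of 2 annotated starts and also has 1 departure. The other printed matches have 3 departures each, and their printed bases lie at chr7:16309481-16309510 (Bbc3, plus), chr7:78895932-78895961 (Aen, plus), chr10:41887261-41887290 (Sesn1, plus) and chr6:127109741-127109770 (Tigar, minus). The seventh gene was Trp53. A match of letters does not show binding, and many p53 elements lie in introns or further upstream, outside this window.

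Values are log2 RMA values, and differences are transgenic minus control. A gene took its brightest probe set, and was kept when at least 1 of both values reached 5.76, the median of all values, called the floor here. Of the 34 genes 32 were kept. Of these, 5 were at least 2-fold higher in the transgenic sample, where 2.51% of all 12143 kept genes were. Among the 5, Ddias and Pmaip1 had control values below the floor and were kept through their transgenic values alone. At least 2-fold lower was 1, against a background of 0.511%. A positive difference was found for 25 of the 32, against 54.2% of all genes. The median difference was 0.38 over the p53 genes and 0.029 over all genes. At a lower limit of 1.5-fold, 11 p53 genes were higher (background 7.73%) and 1 was lower (background 3.14%). In the plot of all kept genes, the p53 genes past these limits lie across a wide range of signal levels, from near the floor for Pmaip1 to high values for Ccng1 and Cdkn1a.

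**Figure D1:**
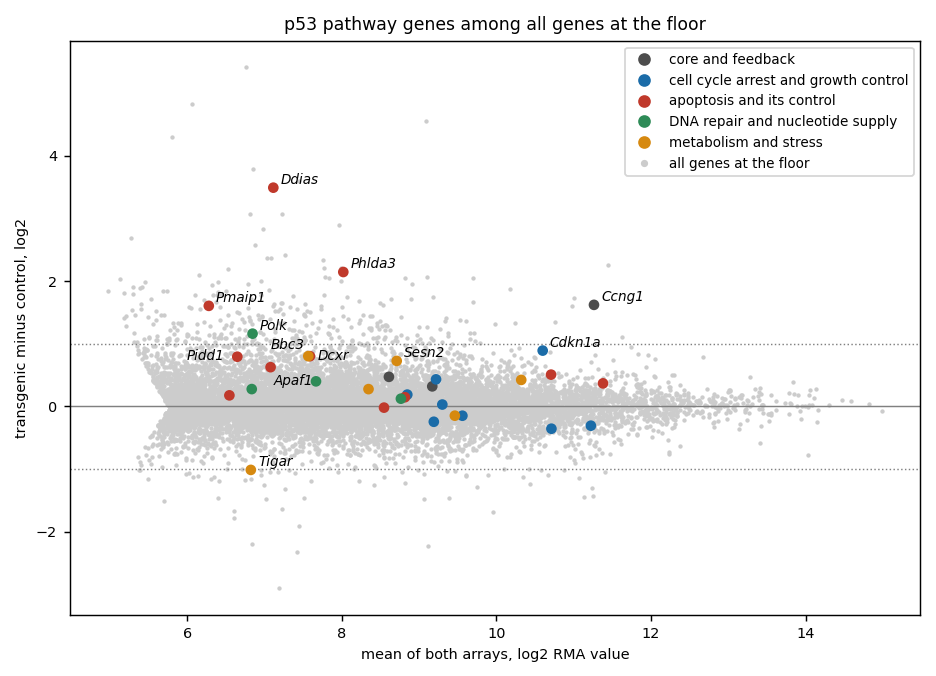
Difference (transgenic minus control, log2) against the mean of both arrays (log2 RMA value) for 12143 genes at the floor, with the 32 kept p53 genes coloured by role and those past 1.5-fold named. Ddias, Phlda3, Ccng1, Pmaip1 and Polk lie above the upper dotted 2-fold line and Tigar just past the lower one.

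Among the genes that act on p53 itself, cyclin G1 differed further than both Mdm inhibitors. Ccng1, a p53 target that directs a phosphatase to Mdm2, read 12.07 on the transgenic and 10.45 on the control array, a difference of 1.62 or 3.08-fold. Its other probe sets read 10.08 against 8.24 and 9.53 against 8.10, differences of 1.84 and 1.42. All 3 probe sets of Ccng1 were thus past 2-fold, well above the floor on both arrays. Mdm2, the ligase that marks p53 for degradation and is among its best known targets, read 9.33 and 9.01, a difference of 0.32, and its second probe set at the floor gave 0.22. Mdm4, a relative of Mdm2 that masks the activating part of p53, read 8.85 and 8.37, a difference of 0.47, with 0.61 on its second probe set at the floor. The Mdm4 probe sets below the floor gave 0.05 and -0.19. On their probe sets at the floor both feedback inhibitors therefore lay on the higher side by less than 2-fold, while cyclin G1 lay beyond it.

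The genes of cell cycle arrest and growth control were spread on both sides of 0, with Cdkn1a furthest higher. Of 8 kept genes 4 were positive (50%, against 54.2% of all kept genes), none was past 2-fold, and the median was -0.059. Cdkn1a, which encodes the cyclin-dependent kinase inhibitor p21, read 11.04 against 10.15, a difference of 0.89 or 1.85-fold. Its second probe set read 10.57 against 9.42, a difference of 1.14, so that the 2-fold call of Cdkn1a depended on the probe set taken. Plk2, a stress-responsive polo-like kinase, read 9.44 and 9.00, a difference of 0.43, and its relative Plk3 read 9.32 and 9.28, a difference of 0.031. A second Plk2 probe set, below the floor, gave -0.48. Zmat3, an RNA-binding zinc finger protein, read 8.94 and 8.75, a difference of 0.19.

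The remaining arrest and growth genes were on the lower side. Gadd45a, a stress sensor of growth arrest, read 9.49 and 9.63, a difference of -0.15. Sertad1, which binds the cyclin D kinase, read 9.07 and 9.31, a difference of -0.24. Btg2, an antiproliferative cofactor, read 10.53 and 10.89, a difference of -0.35, but its second probe set gave 0.20, so its direction is unsettled. Ccnd1, which encodes cyclin D1 and drives entry into the cycle rather than arrest, read 11.07 and 11.38, a difference of -0.31. The other probe sets of Ccnd1 gave -0.25 and -0.71, so all 3 were lower in the transgenic sample.

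**Figure D2:**
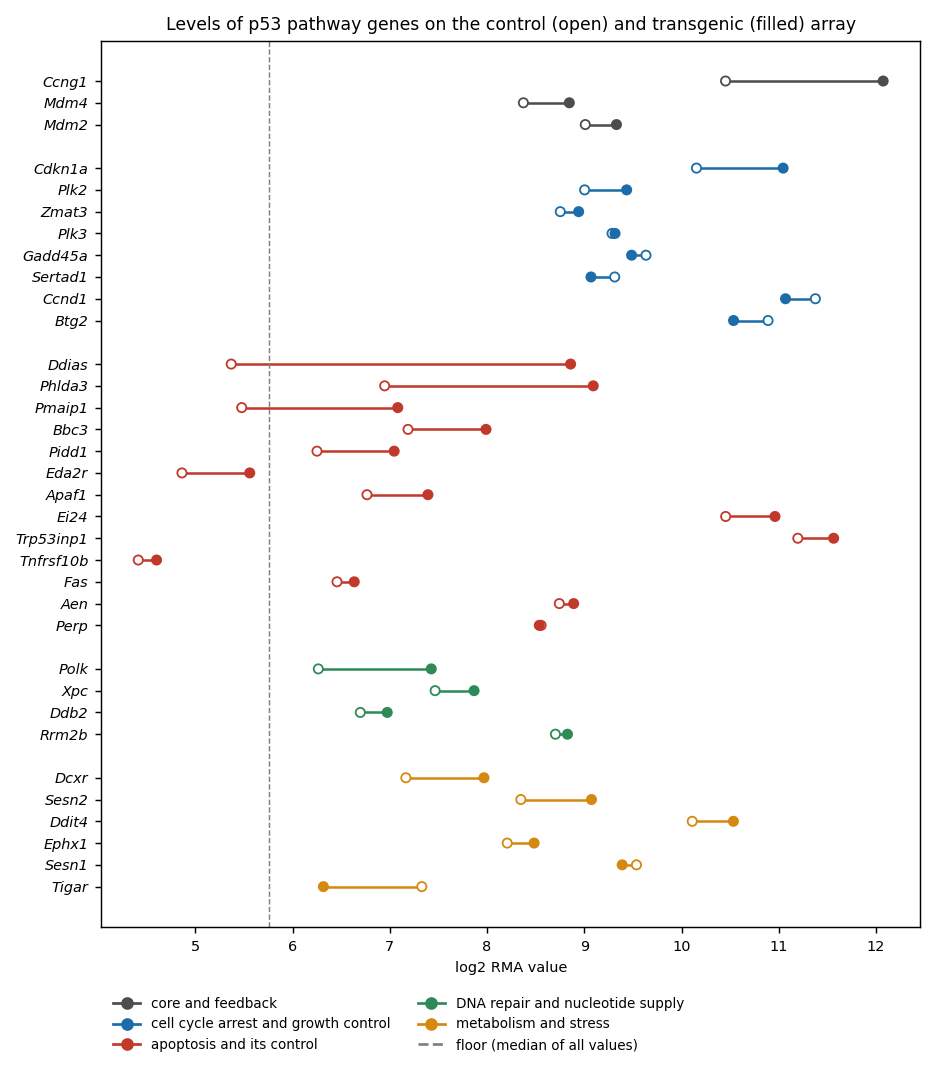
Log2 RMA value of 34 p53 pathway genes on the control array (open) and the transgenic array (filled), grouped by role and ordered by difference, with the floor of 5.76 dashed. Apoptosis genes show the widest gaps, led by Ddias (5.37 to 8.86), while the cyclin D1 gene Ccnd1 runs the other way (11.38 to 11.07); levels of different probe sets cannot be set against each other.

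Genes of apoptosis and its control held 3 of the 5 genes past 2-fold (27.3% of the group, against 2.51% of all kept genes). Ddias and Pmaip1, both among these 3, were kept through their transgenic values alone and enter the figures of the group. Of 11 kept genes 10 were positive and 6 were at least 1.5-fold higher, against 54.2% and 7.73% of all kept genes. The median was 0.63. Ddias, which protects cells from apoptosis after DNA damage, read 8.86 on the transgenic and 5.37 on the control array, a difference of 3.49 or 11.2-fold. It was the 7th furthest higher of all 12143 genes. Its second probe set read 7.58 against 3.63, a difference of 3.95. Both control values of Ddias lay below the floor, where the array's background limits a fold. Set against the floor itself, the transgenic value was 8.57-fold higher. Phlda3, a membrane-binding inhibitor of the survival kinase Akt, read 9.09 against 6.95, a difference of 2.14 or 4.42-fold. Both values of Phlda3 were above the floor, and it had 1 probe set only.

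The BH3-only genes, whose proteins oppose the protective Bcl-2 family, were both higher. Pmaip1, which encodes Noxa, read 7.08 against 5.48, a difference of 1.60 or 3.04-fold, with the control value below the floor and 2.50-fold when set against the floor. Bbc3, which encodes Puma, read 7.99 against 7.19, a difference of 0.80 or 1.74-fold. Both were measured by 1 probe set, and Noxa alone passed 2-fold.

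The genes of the caspase platforms and of the receptors differed by less. Pidd1, which assembles a caspase-activating complex, read 7.04 against 6.25, a difference of 0.79. Apaf1, the core of the apoptosome, read 7.39 against 6.77, a difference of 0.63. Its second probe set, below the floor, gave 0.19. Ei24, a membrane protein of the endoplasmic reticulum, read 10.96 against 10.45, a difference of 0.51. Trp53inp1, a stress protein that helps p53 induce death genes, read 11.56 against 11.20, a difference of 0.37, with -0.08 on a probe set below the floor. These genes were all on the higher side, and Pidd1 and Apaf1 lay past 1.5-fold.

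The death receptors and the remaining apoptosis genes lay close to 0 or below the floor. Fas read 6.63 and 6.46, a difference of 0.18. Aen, an exonuclease that degrades DNA in dying cells, read 8.89 and 8.74, a difference of 0.15, with further probe sets at 0.28 and 0.13. Perp, a membrane protein of desmosomes, read 8.54 and 8.56, a difference of -0.019. Tnfrsf10b, the receptor for the death ligand TRAIL, and Eda2r, a receptor for ectodysplasin, were below the floor on both arrays and were not counted. Eda2r read 5.56 and 4.86, and Tnfrsf10b 4.60 and 4.41. Aen, whose start region holds the element printed above, thus differed by little.

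DNA repair genes were all 4 on the higher side, against 54.2% of all kept genes, with a median of 0.34. Polk, a polymerase that copies past damaged bases, read 7.43 against 6.26, a difference of 1.16 or 2.24-fold. Its second probe set, below the floor on both arrays, gave 0.37, and the mean over both probe sets was 0.77, under 2-fold. Xpc, which recognises distorted DNA in nucleotide excision repair, read 7.87 against 7.47, a difference of 0.40. Ddb2, which finds ultraviolet lesions, read 6.97 against 6.70, a difference of 0.28, with 0.32 on its second probe set. Rrm2b, the p53-induced subunit of ribonucleotide reductase, read 8.83 and 8.70, a difference of 0.12. Of the other 3 Rrm2b probe sets 1 was positive at 0.27 and the others gave -0.04 and -0.07, so its direction is unsettled.

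Metabolism and stress genes ran in both directions. Of 6 kept genes 4 were positive (66.7%, against 54.2% of all kept genes), and the median was 0.35. On the lower side 1 was past 2-fold (background 0.511%). Dcxr, a reductase of sugars and dicarbonyls, read 7.97 against 7.17, a difference of 0.80. Sesn2, a sestrin that restrains the growth kinase complex mTORC1, read 9.07 against 8.35, a difference of 0.73, and its second probe set gave 0.27. The related Sesn1 read 9.39 and 9.54, a difference of -0.15, with its other probe sets at the floor between -0.33 and -0.10. The sestrins thus lay on opposite sides of 0 on every probe set at the floor. Ddit4, another inhibitor of mTORC1, read 10.53 against 10.11, a difference of 0.42, and Ephx1, an epoxide hydrolase, read 8.48 against 8.21, a difference of 0.28.

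Tigar was the p53 target furthest lower. Tigar, a phosphatase that slows glycolysis, read 6.32 on the transgenic and 7.33 on the control array, a difference of -1.01, which ranked 56 from the lowest of all kept genes. Its second probe set at the floor read 6.46 against 6.59 and gave only -0.12, and averaged over its probe sets Tigar stood at -0.42. The 2-fold call of Tigar therefore rests on 1 probe set.

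**Figure D3:**
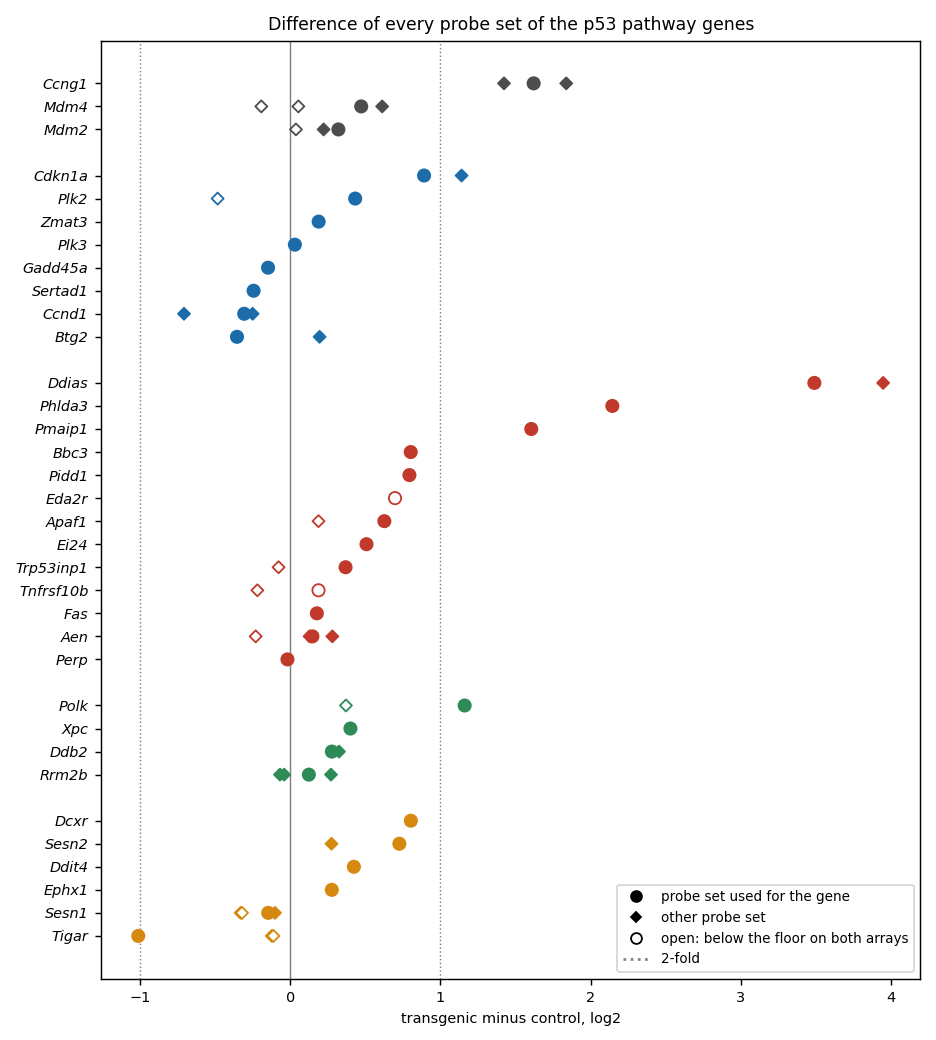
Difference (transgenic minus control, log2) of all 64 probe sets of 34 p53 pathway genes; circles are the probe sets used for the gene, diamonds the others, and open symbols lie below the floor on both arrays. The probe sets of Ccng1 and of Ddias sit together past the dotted 2-fold line, while those of Polk, Tigar and Btg2 lie apart.

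The probe sets gave a check on direction within these arrays, although they share 1 RNA and are no replicates. Of the kept genes 13 had further probe sets at the floor, and 16 of these 19 probe sets had the sign of the one used. For 11 of the 13 genes all signs were alike, the exceptions being Btg2 and Rrm2b. The probe sets at the floor of a p53 gene lay a median of 0.34 apart, and those of all 5180 genes with several lay 0.28 apart. The differences of Cdkn1a, Ccng1, Ddias and Phlda3, among others, exceed both gaps. Those of Mdm2, Zmat3, Fas, Aen, Perp, Plk3, Gadd45a, Sesn1, Ccnd1, Sertad1, Ddb2, Ephx1 and Rrm2b do not exceed 0.34 in size.

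The p53 genes with a match printed above did not share a direction. With 1 departure, Ccng1 (1.62) and Cdkn1a (0.89) were both higher. With 3 departures, Bbc3 (0.80) was higher, Aen (0.15) and Sesn1 (-0.15) were near 0, and Tigar (-1.01) was lower. The matched genes of the further list given next, with 1 or 2 departures, were all higher. The start regions of Ddias, Phlda3 and Polk, all past 2-fold, did not hold these letters.

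Other reported p53 targets, on a list taken from general knowledge, also ran in both directions. Of 26 kept genes 19 were positive (73.1%, against 54.2% of all kept genes), with a median of 0.24. At least 2-fold higher were 6 (23.1%, against 2.51% of all kept genes), and none was 2-fold lower. Ckap2, a spindle protein, read 9.00 against 6.99, a difference of 2.01. Zfp365, a zinc finger protein of genome stability, read 7.00 against 5.22, a difference of 1.78 with the control below the floor (2.36-fold against the floor) and 0.08 on a probe set below the floor on both arrays. Gtse1, which moves p53 out of the nucleus, read 7.94 against 6.30, a difference of 1.64. A match to the p53 element with at most 2 departures was found for 4 of 29 searched genes of this list (13.8%). The share was 0.372% of all protein-coding genes. Of the matched genes, Rps27l has 1 departure and differed by 0.30. The other 3 are Gtse1, with 1 departure, and Ckap2 and Zfp365, with 2 each.
Gtse1: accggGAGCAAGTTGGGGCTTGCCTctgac
Ckap2: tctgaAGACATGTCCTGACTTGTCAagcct
Zfp365: tagcaAGACTAGGCTGGGCAAGACTggcac
The printed bases lie at chr15:85859940-85859969 (plus), chr8:22185998-22186027 (minus) and chr10:67912701-67912730 (minus). Sulf2, a sulfatase of the cell surface, read 8.89 against 7.56, a difference of 1.33, but 1 of its other probe sets gave -0.08 and the other 1.92. The phosphatase gene Ppm1d, a feedback inhibitor of p53 signalling, had a difference of 1.06 with 0.96 on its second probe set, and Pank1, a kinase of coenzyme A synthesis, one of 1.06 with 0.54 and -0.08 on others at the floor. Rps27l, Ppm1d and Pank1 were named after their values were seen.

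Genes upstream of p53 and its partners lay mostly within 2-fold. Of 13 kinases and damage sensors 10 were positive (76.9%, against 54.2% of all kept genes), with a median of 0.22. That median was near the 0.24 of the further targets. Only the checkpoint kinase gene Chek2 passed 2-fold (7.69%, against 2.51% of all kept genes). It read 6.29 against 5.24, a difference of 1.06. Its control value was below the floor, and set against the floor Chek2 was only 1.45-fold higher. Of 20 kept modifiers and partners of p53 none passed 2-fold, against 2.51% higher and 0.511% lower among all kept genes. Positive were 12 (60%), near the 54.2% of all kept genes, and the median was 0.037 against 0.029 over all genes. Furthest from 0 were Daxx, an adaptor of p53 and histone chaperone, at -0.44 and Kmt5a, a histone and p53 methyltransferase, at 0.42.

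Genes that p53 lowers through p21 and the DREAM repressor complex, which silences cell cycle genes in resting cells, were all higher. All 19 kept members were positive on the probe set used, against 54.2% of all kept genes, with a median of 0.998. The other Bub1b probe sets at the floor disagreed, at -0.31 and 1.28. At least 2-fold higher were 9 (47.4%, against 2.51% of all kept genes). Aurkb, Mybl2 and Cdc25c had control values below the floor and were kept through their transgenic values alone. Mki67, the proliferation marker, read 10.29 against 8.93, a difference of 1.36. Mcm5, of the replicative helicase, read 8.24 against 6.77, a difference of 1.48, with 0.996 on its second probe set at the floor. Top2a, a topoisomerase of dividing cells, read 10.22 against 8.83, a difference of 1.38, but its second probe set at the floor gave 0.69. The 2-fold calls of Mcm5 and Top2a thus depended on the probe set. Aurkb, a mitotic kinase, had a difference of 1.26, with its control value below the floor and only 1.62-fold when set against the floor. On the probe sets used, Cdkn1a and the genes repressed by way of its product thus lay on the same side on these arrays. Ckap2, Gtse1 and Chek2 are also active in dividing cells. The 24 kept genes of the cell cycle list had a median of 0.90 with 24 positive, against 54.2% of all kept genes. Other probe sets of Tpx2, on that list, lay between -0.30 and 1.21. The cell cycle list shares 16 names with the p21 and DREAM list.

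**Figure D4:**
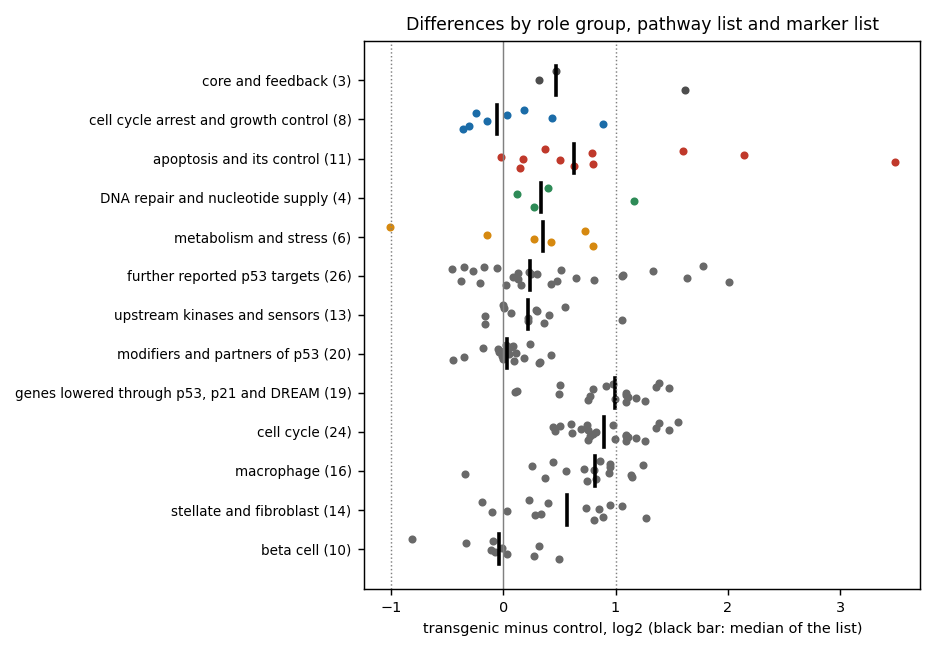
Differences (transgenic minus control, log2) of the kept genes in each role group of the p53 genes (coloured) and in the other lists (grey), with the number of genes in brackets and the list median as a black bar. Apoptosis genes have a median of 0.63 and arrest genes one of -0.059; cell cycle and macrophage genes lie further to the right, at 0.90 and 0.82.

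Macrophage, stellate cell and fibroblast markers and the array's poly-A spike controls were mostly higher too, and their part in the p53 result was not tested. Of 20 macrophage markers 16 were kept, with a median of 0.82. Of these, 15 were positive and 3 at least 2-fold higher, against 54.2% and 2.51% of all kept genes. Their summed level, as log2, was 13.31 on the transgenic and 12.75 on the control array, led by Mpeg1 at 1.25 and C1qb at 1.15. Of 14 kept stellate cell and fibroblast markers 12 were positive (85.7%, against 54.2% of all kept genes). Their median was 0.57 and their summed levels were 13.40 and 12.73. Col1a2 (1.27) and Postn (1.05) were past 2-fold (14.3%, against 2.51% of all kept genes), but a second Col1a2 probe set gave 0.67. Lum was kept through its transgenic value alone. The 10 beta cell markers had a median of -0.042. Medians of the other cell type lists were 0.60 for Schwann, 0.22 for ductal and 0.21 for acinar markers. They were 0.058 for endothelial, 0.031 for other endocrine and -0.14 for lymphocyte markers. None of the 37 p53 genes is on a marker list, and in such bulk RNA more cells of a type and more RNA per cell cannot be told apart. The array's 24 poly-A spike probe sets all read higher in the transgenic sample, the median being 1.51. Its 18 hybridisation control probe sets were also all higher, with a median of 0.40. RNA integrity was read as a 3' value minus a 5' value. It was 1.21 on the transgenic and 1.09 on the control array for Actb, and 0.55 and 0.68 for Gapdh, so the 2 transcripts went opposite ways. The 18S rRNA probe sets had a median of -0.83.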

How the data were processed

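The authors deposited 1 log2 value per probe set and array, computed by RMA in Affymetrix Expression Console per the submitters' processing notes (the sources used here give no version). This method corrects background, equalises the distributions of arrays and summarises probes. It gives no detection call and compresses differences at both ends of the scale.

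Probe sets took their gene from the array platform's annotation, with symbols updated by Entrez identifier to GRCm38.p6 gene names (34741 of 34945 with a single symbol matched). A gene was read from its probe set of highest mean level, and the floor was 5.76. No test was possible with 1 array per group. The number of arrays limits the precision. The p53 genes, the pathway and marker lists and the limits were chosen with earlier results of these data known. Named genes were all 34 p53 genes with a value, up to 4 per pathway list past 2-fold in each direction (otherwise the 2 furthest), and from marker lists the furthest 2 or those that show the tissue. The procedure was tested on simulated data with planted differences well past 2-fold and little noise. That run checks the code and does not show how well smaller differences are recovered. Alternatives were the probe set rule, probe set classes, the floor, a second quantile normalization, a lowess trend (span 0.3), median centring, a 1.5-fold limit and removal of marker genes. Python 3.11.15, numpy 2.4.6, pandas 2.3.3 and statsmodels 0.14.6 were used.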

Additional observations from a re-analysis of the deposited data

Results flagged for a closer look

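The gene comparison used 1 probe set per gene. Of 19 further probe sets of kept p53 genes at the floor, 4 were at least 2-fold higher in the transgenic than in the control sample. The share over all further probe sets of the array was not computed. All 4 belong to genes described above as higher. The second probe set of Ddias had a difference of 3.95, reading 7.58 against a control value of 3.63, which is below the floor. Both further probe sets of Ccng1 were past 2-fold, at 1.84 and 1.42. The second probe set of Cdkn1a gave 1.14, while the probe set used for the gene gave 0.89. No further probe set of a p53 gene at the floor was 2-fold lower. Each genotype had a single array, so no outlying sample could be looked for.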

How the results depend on the processing

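Of 34 recomputed counts and medians of the p53 genes, 30 stayed within 1.5 times the reported count or within 0.28 of the reported median, the gap between probe sets of a gene. The median difference ran from 0.26 with probe sets averaged to 0.40 without the _s, _x and _a classes. The count of genes at least 2-fold higher was 3 with a floor at the 75th percentile, which left 25 genes and removed Pmaip1 and Polk, and 11 with the 1.5-fold limit. The count at least 2-fold lower, which is Tigar alone, was 0 with probe sets averaged and 0 with the stricter floor. Subtracting a lowess trend lowered the share of positive differences over all genes from 54.2% to 50.1% and left 25 of 32 p53 genes positive. No p53 gene is on a marker list, so the counts and medians recomputed without marker genes could not change. They are nevertheless counted among the 30 of 34. Among single genes, Sulf2 reversed to -0.0798 without the _s, _x and _a classes; the cause was not tested. With probe sets averaged, Polk stood at 0.77, Tigar at -0.42, Plk2 at -0.026, Top2a at 0.71 and Mcm5 at 1.06. Without the _s, _x and _a classes Top2a stood at 0.69 and Mcm5 at 0.996, both under 2-fold. Chek2 stood at 0.99 with the lowess trend subtracted. Ddias, Phlda3 and Ccng1 were 2-fold higher under all 7 settings that recomputed them. No paired analysis was possible because each genotype has 1 array. Signal near the floor limits Ddias, Pmaip1, Eda2r and Tnfrsf10b.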

Other observations

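Some genes of the wider p53 pathway had probe sets that disagreed or lay too low to read. Psrc1, a spindle protein and reported p53 target, had a difference of 0.25 on the probe set used and 1.89 on its second probe set at the floor. Fuca1, a lysosomal fucosidase, stood at 0.65, with 0.51 and 0.87 on its other probe sets. Ercc5, an endonuclease of nucleotide excision repair, read 8.23 against 7.43, a difference of 0.81, on the same side as Xpc and Ddb2. Rps27l, a ribosomal protein relative, had a start region with a match to the p53 element with 1 departure and differences of 0.30 to 0.38 over its 3 probe sets. The p53 relatives Trp63 and Trp73 and the p53 stabiliser gene Cdkn2a were below the floor on both arrays. These genes were named after their values were seen.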
